A study of Mus musculus with 10 samples.

Results

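The endoplasmic reticulum (ER) stress and folding genes described here are 36 genes chosen by name: 8 sensors and transcription factors of the stress response, 16 chaperones and folding enzymes, 8 genes of ER-associated degradation and 4 genes of the protein translocon. All 36 were found by symbol among the 48526 gene identifiers of the deposited table, and all 36 averaged 10 or more normalized counts per library, a floor that 17007 genes passed. Poly(A) RNA had been sequenced from microdissected dentate gyrus, the hippocampal region that holds the granule neurons, of 10 C57Bl/6 mice that were 8 weeks old. In 5 mice an adeno-associated viral vector, serotype 9, encoded Sox11, a transcription factor of newborn neurons, and 1 µl had been injected per side; in the 5 control mice a vector of that serotype encoded green fluorescent protein (GFP). Mice of both groups therefore received a virus, and uninjected tissue was not analysed here. The promoter that drives either transgene, the cells that took up the virus and the time between injection and dissection are not stated in the sources used here. Libraries are called by the numbers in the table's header, Sox11 1, 2, 3, 6 and 7 and GFP 1, 3, 4, 5 and 6.

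Proteins bound for the cell surface, for secretion or for the organelles of the secretory route enter the ER through the translocon, are folded there by chaperones and disulphide isomerases, and are sent back to the cytosol for destruction when folding fails. Unfolded protein in the ER is sensed by Ern1 (the IRE1α kinase and RNase, which splices Xbp1 mRNA), by Eif2ak3 (the kinase PERK, which lowers translation and lets Atf4 be made) and by Atf6 (a membrane-bound transcription factor freed by cleavage). Xbp1 and Atf6 are known to raise chaperone and degradation genes through promoter elements called ER stress elements. Gene-level counts of mRNA do not show Xbp1 splicing, PERK phosphorylation or Atf6 cleavage.

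Chaperone and folding transcripts were lower in the Sox11 libraries: 14 of the 16 fell, and none rose. The transcription factor gene Xbp1 and the sensor gene Atf6 fell too, while the sensor genes Ern1 and Eif2ak3 did not pass the test. Of the degradation genes 3 of 8 fell, and of the translocon genes none of 4 fell and 1 rose. Together 19 of the 36 genes fell (52.8%) and 2 rose, by limma at a Benjamini-Hochberg adjusted p below 0.05 over all 17007 genes, on log2(normalized count + 1). Over all genes tested 9.36% fell and 9.65% rose. The 36 genes were chosen with earlier results of these data known, so their share is not an independent test. The median log2 fold change, Sox11 minus GFP, was -0.17 over the 36 genes and -0.01 over all genes tested, and 28 of the 36 lay below 0, against 51.5% of all genes tested. The lowest GFP library lay above the highest Sox11 library for 13 of the 36 genes, and the reverse held for 2. Over all genes tested, the groups did not overlap with Sox11 lower for 7.29% and with Sox11 higher for 8.63%. The 13 lower genes and the 2 higher ones each had an exact permutation p of 0.00794 (two-sided), the smallest possible with 5 libraries against 5. Groups that do not overlap always give this p, so it adds nothing to the separation itself.

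**Figure D1:**
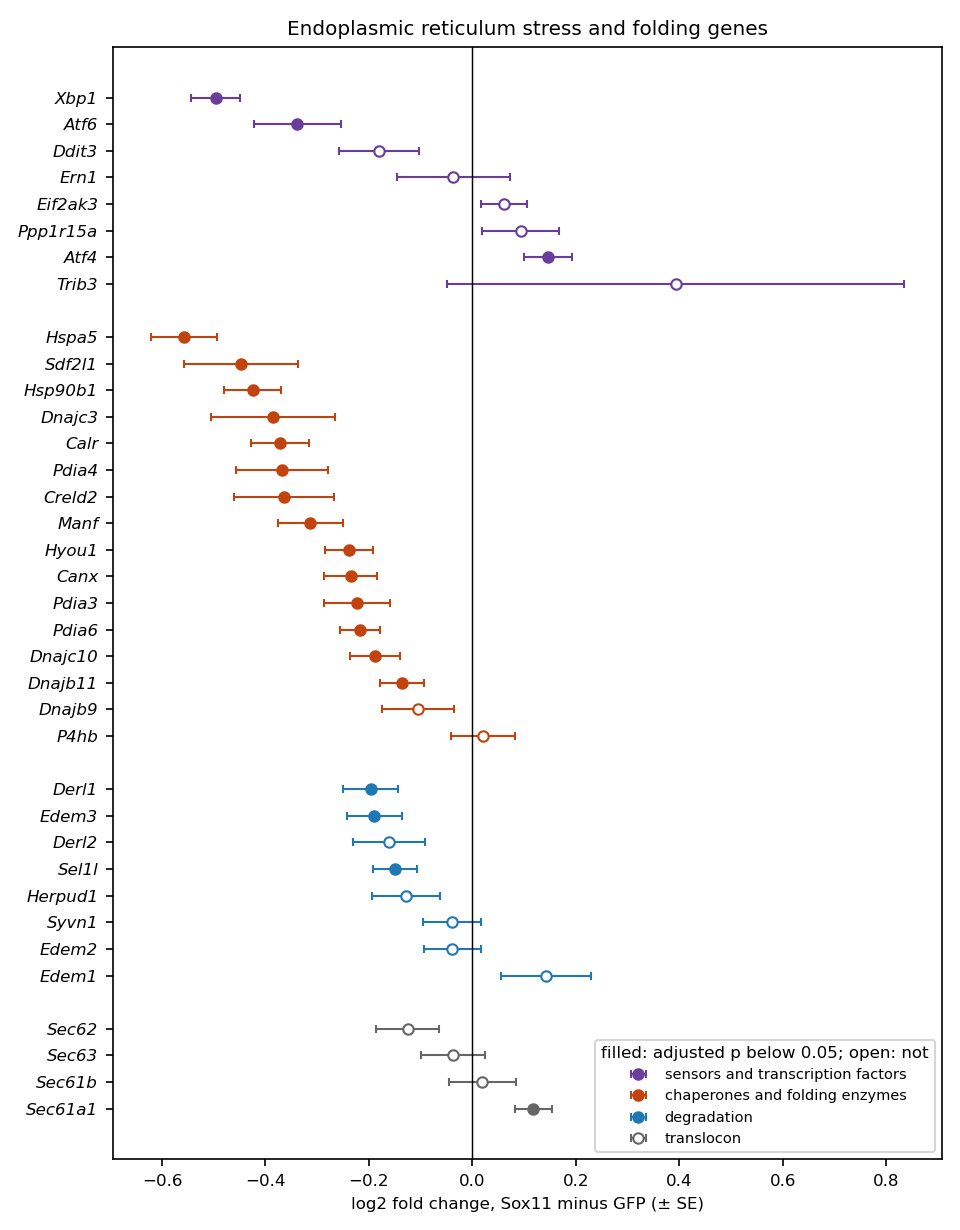
Log2 fold change (Sox11 minus GFP, points) with its standard error (bars) for each of the 36 genes, grouped by role, with filled points for genes called by limma (adjusted p below 0.05). The chaperones and folding enzymes lie between -0.56 (Hspa5) and 0.02 (P4hb), and 14 of their 16 points are filled.

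Between 45100154 and 68769808 reads per library were assigned to genes. Sox11 itself had 11591, 10414, 20434, 9803 and 10552 normalized counts in the Sox11 libraries, against 1399, 1367, 1364, 1634 and 1383 in the GFP libraries, a log2 fold change of 3.08 (SE 0.18). The counts do not separate viral from mouse Sox11 reads. The granule neuron genes Prox1 (18329.5 ± 3714 normalized counts in Sox11 and 15854 ± 2937 in GFP libraries, mean ± SD) and Calb1 (15398 ± 3208 normalized counts in Sox11 and 13723 ± 2360.2 in GFP libraries) were expressed in every library. Both were higher in Sox11 6 and 7 (Prox1 22834 and 21910, Calb1 16881 and 20363) than in Sox11 1, 2 and 3 (Prox1 15349 to 16043, Calb1 12774 to 13726). GFP 5 was the highest GFP library for both (20946 and 17435). The 10 granule neuron markers summed to 77421 to 106221 in Sox11 and 70049 to 100475 in GFP libraries. Marker lists of the other cells of the tissue were summed. Their counts stand against 9.36% of all genes tested that fell and 9.65% that rose. Of the 12 markers of immature neurons, a list that holds Sox11, 7 rose and 5 did not pass. Of the 12, 3 lay below 0, the lowest at a log2 fold change of -1.46. The sum of the 12, Sox11 included, was 67675 to 97712 normalized counts in Sox11 libraries and 35030 to 39645 in GFP libraries. Of the 10 interneuron markers 3 fell, with sums of 36546 to 48284 in Sox11 and 48311 to 56220 in GFP libraries. Of the 10 astrocyte markers 3 rose, with sums of 327013 to 406527 in Sox11 and 298376 to 378846 in GFP libraries. Among 10 microglial markers 2 rose, among 10 granule neuron markers 2 rose and 2 fell, among 10 leukocyte markers 5 were tested and 2 rose, and none passed among markers of oligodendrocytes, endothelium, pyramidal neurons, choroid plexus and ependyma, or blood. All 10 oligodendrocyte markers nevertheless lay below 0, with a median log2 fold change of -0.19. Their sums overlapped, at 70954 to 171304 in Sox11 and 81541 to 152383 in GFP libraries. In the choroid plexus list, Kl was at 603 to 938 normalized counts in Sox11 and 1448 to 13733 in GFP libraries, with no overlap, and it fell when GFP 3 was left out (limma adjusted p = 0.000176). In the pyramidal list, Kcnq5 fell when Sox11 3 or GFP 3 was left out, and Iyd rose when GFP 4 was. No marker was at 0 in all 10 libraries. The choroid plexus and ependyma sum was 574019 in GFP 3 and 4434 to 9553 in the other 9 libraries. The part that these differences between libraries play in the results below was not tested, and in bulk tissue fewer cells of a type and less RNA per cell cannot be told apart.

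Among the sensors and transcription factors 2 of 8 genes fell and 1 rose, and the median log2 fold change was 0.01. Xbp1, the transcription factor made active by IRE1α splicing, changed most clearly. Xbp1 (ENSMUSG00000020484, chr11:5520659-5525893, plus strand, GRCm38) had 3002, 2895, 2757, 2995 and 2619 normalized counts in Sox11 libraries 1, 2, 3, 6 and 7, against 3949, 4189, 3912, 4162 and 3902 in GFP libraries 1, 3, 4, 5 and 6. The highest Sox11 library lay below the lowest GFP library. The log2 fold change was -0.50 (SE 0.05; adjusted p = 7.66e-05 in limma), and the Sox11 mean was 70.9% of the GFP mean. The call held with each library left out, and within the libraries numbered 1 to 3 (log2 fold change -0.50) and those numbered 4 to 7 (-0.51).

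Atf6, the cleaved membrane sensor, had 5821, 5931, 5630.0, 7557 and 6948 normalized counts in the Sox11 libraries, against 7379, 7834, 8283, 8817 and 7825 in the GFP libraries. The Sox11 libraries formed a lower set (1, 2 and 3) and a higher set (6 and 7), and Sox11 6 lay above GFP 1, the lowest GFP library. Atf6 (chr1:170704674-170867771, minus strand) fell with a log2 fold change of -0.34 (SE 0.08; limma adjusted p = 0.0164), and its exact permutation p was 0.0159 (two-sided). Within the libraries numbered 1 to 3 the fold change was -0.39 (limma adjusted p = 0.0232), and within those numbered 4 to 7 it was -0.20 (adjusted p = 0.101). The labels do not say what the header numbers mean.

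The other ER sensors did not pass the test. Ern1 (chr11:106394650-106487852, minus strand) had 728, 722, 713, 755 and 677 normalized counts in the Sox11 libraries, against 779, 979, 604, 691 and 683 in the GFP libraries. GFP 3 held its highest value and GFP 4 its lowest, so the GFP range enclosed all 5 Sox11 values. The log2 fold change was -0.04 (95% interval -0.28 to 0.20; limma adjusted p = 0.874), and it was 0.066 without GFP 3. Eif2ak3 (chr6:70844515-70905245, plus strand) had 1569, 1626, 1713, 1718 and 1649 normalized counts in the Sox11 libraries, against 1660.2, 1611, 1597, 1566 and 1499 in the GFP libraries, with overlapping groups. Its log2 fold change was 0.06 (95% interval -0.04 to 0.16; limma adjusted p = 0.388). These intervals do not reach the change of Xbp1, and a p above the threshold does not show that the levels were equal.

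Atf4, the transcription factor made when PERK or a related kinase slows translation, moved the other way. Atf4 (chr15:80255184-80257541, plus strand) had 5325, 4999, 5052, 5322 and 5011 normalized counts in the Sox11 libraries, against 4919, 4748, 4685, 4240.2 and 4658 in the GFP libraries. The lowest Sox11 library lay just above the highest GFP library, so the groups did not overlap. Atf4 rose with a log2 fold change of 0.15 (SE 0.05; limma adjusted p = 0.0475). This call was lost when any single library other than GFP 1 was left out (limma adjusted p 0.0393 without GFP 1, and up to 0.108 without another library).

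Ddit3, which encodes the pro-apoptotic factor CHOP and is a known target of Atf4, had 869, 858, 732, 772 and 683 normalized counts in the Sox11 libraries, against 971, 885, 871, 883 and 813 in the GFP libraries. The groups overlapped, with a log2 fold change of -0.18 (95% interval -0.35 to -0.01; limma adjusted p = 0.129). Ppp1r15a, the phosphatase subunit GADD34 that restores translation, averaged 754 ± 33.9 normalized counts in Sox11 and 709 ± 73.97 in GFP libraries (n = 5 each, SD), a log2 fold change of 0.09 (adjusted p = 0.437). Trib3, a pseudokinase gene known to be raised by CHOP, had 12.2 to 43.7 normalized counts in Sox11 and 6.10 to 29.96 in GFP libraries. Its estimate was wide (log2 fold change 0.39, SE 0.44). None of these 3 genes downstream of PERK passed the test. With the division of the header numbers as a covariate Ddit3 did pass, lower in Sox11 libraries by a log2 fold change of -0.21 (limma adjusted p = 0.0436).

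**Figure D2:**
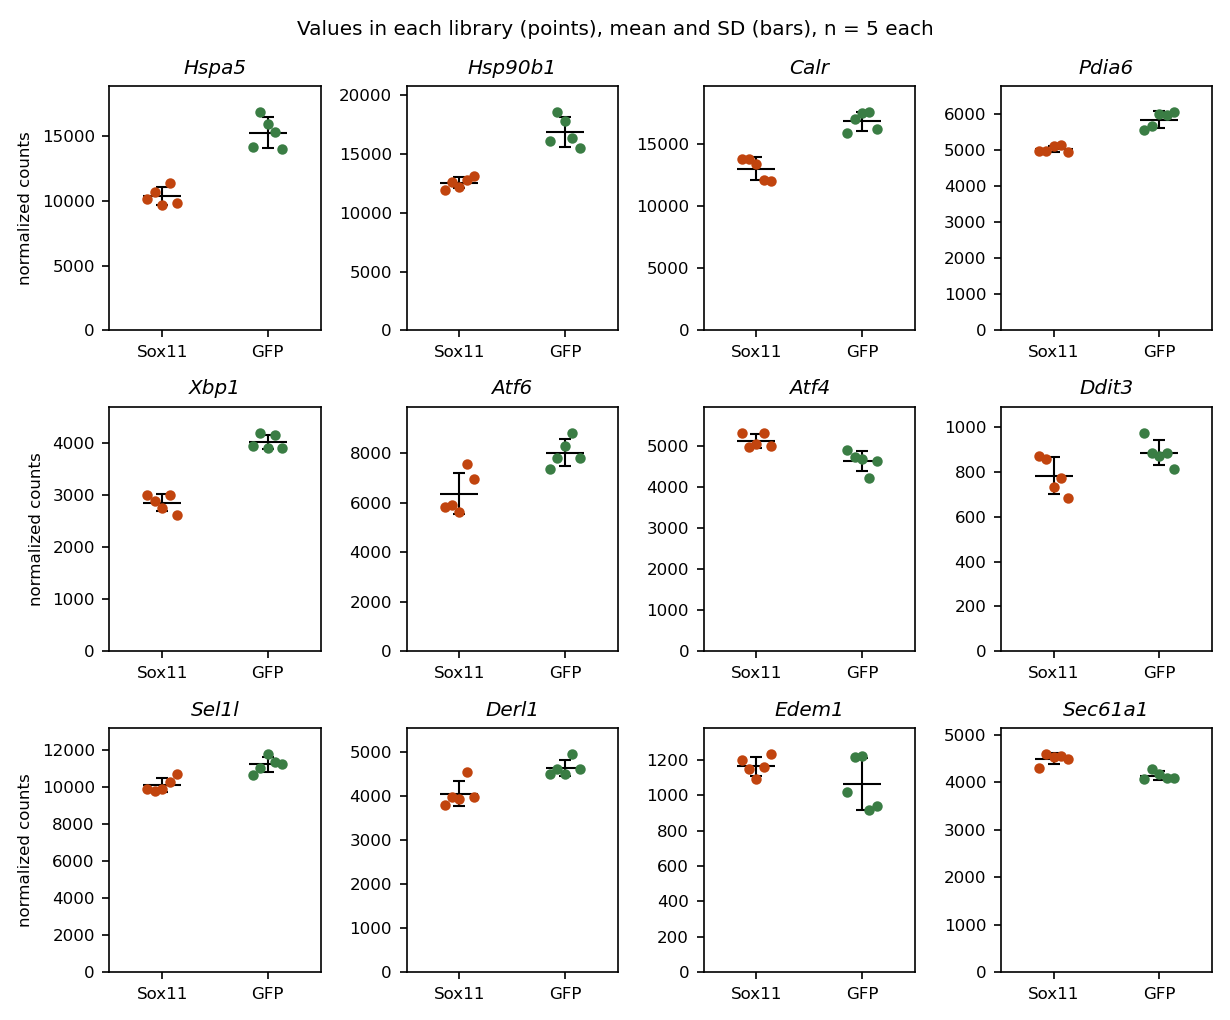
Normalized counts in each library (points) with the mean and SD (bars; n = 5 each) for 12 genes, Sox11 libraries left of GFP libraries. Hspa5, Hsp90b1, Calr, Pdia6 and Xbp1 show Sox11 libraries wholly below GFP libraries, Atf4 and Sec61a1 show them wholly above, and Atf6, Ddit3, Sel1l, Derl1 and Edem1 overlap.

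The chaperone and folding genes had the lowest median of the 4 role groups, a log2 fold change of -0.28, and for 11 of the 16 every Sox11 library lay below every GFP library. The difference between role groups was not tested. Hspa5, which encodes BiP, the Hsp70 chaperone of the ER lumen, had 10175, 10711, 9728, 11396 and 9852 normalized counts in Sox11 libraries 1, 2, 3, 6 and 7, against 14191, 16872, 15993, 15334 and 14001 in GFP libraries 1, 3, 4, 5 and 6. Each of the 5 Sox11 libraries lay below each of the 5 GFP libraries. Hspa5 (ENSMUSG00000026864, chr2:34771970-34777547, plus strand) had a log2 fold change of -0.56 (SE 0.06; limma adjusted p = 0.000255), the lowest of the 36 genes, and its Sox11 mean was 67.9% of the GFP mean.

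Hsp90b1, the ER member of the Hsp90 family (GRP94), had 11981, 12675, 12191, 12814 and 13130.2 normalized counts in the Sox11 libraries, against 16133, 18575, 17786, 16374 and 15569 in the GFP libraries. The highest Sox11 library, Sox11 7, lay below the lowest GFP library, GFP 6. Hsp90b1 (chr10:86690209-86705509, minus strand) had a log2 fold change of -0.42 (SE 0.06; limma adjusted p = 0.000529). Of its 31-base words 87.7% are found in no other gene, 5.38% of its exonic bases are covered by same-strand genes and 10.3% by an opposite-strand gene, so part of its count is less certain.

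Calr, the calcium-binding lectin chaperone calreticulin, had 13813, 13826, 13405, 12142 and 11996 normalized counts in the Sox11 libraries, against 15896, 17067, 17527, 17577 and 16184 in the GFP libraries. Sox11 6 and 7 were the lowest, below Sox11 1, 2 and 3, and no Sox11 value reached the GFP range. Calr (chr8:84841850-84846934, minus strand) had a log2 fold change of -0.37 (SE 0.06; limma adjusted p = 0.00116). Within the libraries numbered 1 to 3 it was -0.27, and within those numbered 4 to 7 it was -0.50. For Hspa5 the same divisions gave -0.60 and -0.51, and for Hsp90b1 -0.50 and -0.35. These 3 genes and Xbp1 were the 4 of the 36 whose call held within both divisions.

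Another lectin chaperone and an Hsp70-like chaperone fell with smaller fold changes. Canx, the membrane-bound lectin chaperone calnexin, averaged 17195 ± 649 normalized counts in Sox11 and 20256 ± 1257 in GFP libraries (n = 5 each, SD), a log2 fold change of -0.24 (limma adjusted p = 0.00874). Hyou1, the large Hsp70-like exchange factor of BiP, averaged 5234 ± 176 normalized counts in Sox11 and 6180.3 ± 323 in GFP libraries (n = 5 each, SD), a log2 fold change of -0.24 (adjusted p = 0.00449). For both genes every Sox11 library lay below every GFP library. Their Sox11 means stood at 84.9% and 84.7% of the GFP means.

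The estimates for the J-domain partners of BiP, and for Sdf2l1, lay between -0.45 and -0.11, and differences between these genes were not tested. Sdf2l1, which works with Dnajb11 in the ER lumen, averaged 332 ± 53.5 normalized counts in Sox11 and 450.0 ± 34.6 in GFP libraries (SD, n = 5 each), and its log2 fold change was -0.45 (SE 0.11; limma adjusted p = 0.0159), with overlapping groups. Dnajc3, the co-chaperone p58IPK, averaged 3445 ± 195 normalized counts in Sox11 and 4571 ± 993 in GFP libraries (n = 5 each, SD), a log2 fold change of -0.39 (adjusted p = 0.0467). Its groups overlapped, the fold change was -0.27 without GFP 3, and the call was lost when any of Sox11 1, 2, 3, 6 or 7 or GFP 1, 4 or 5 was left out. Dnajc10, the reductase ERdj5, had a log2 fold change of -0.19 (adjusted p = 0.0189) with no overlap. Dnajb11, ERdj3, had -0.14 (adjusted p = 0.0466), also with no overlap, and lost its call when any of Sox11 1, 2, 3 or 7 or GFP 3, 4, 5 or 6 was left out. Dnajb9, ERdj4, which is known to restrain IRE1α, did not pass, with a log2 fold change of -0.11 (95% interval -0.26 to 0.05).

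Of the protein disulphide isomerases, Pdia3, Pdia4 and Pdia6 fell and P4hb did not pass the test. Pdia4 averaged 1754 ± 73.2 normalized counts in Sox11 and 2282 ± 362 in GFP libraries (n = 5 each, SD), a log2 fold change of -0.37 (limma adjusted p = 0.0145) that was -0.28 without GFP 3. Pdia6, which is known to bind BiP, averaged 5020.1 ± 86.1 normalized counts in Sox11 and 5842 ± 223 in GFP libraries (n = 5 each, SD), a log2 fold change of -0.22 (adjusted p = 0.00274). Pdia3, the partner of calnexin and calreticulin, averaged 10262 ± 560.4 normalized counts in Sox11 and 12004 ± 1035 in GFP libraries (n = 5 each, SD), a log2 fold change of -0.22 (adjusted p = 0.0303), a call lost without Sox11 1, 2 or 3 or GFP 4. The groups of these 3 genes did not overlap. P4hb, the isomerase PDI that is also a subunit of prolyl hydroxylase, averaged 6872 ± 253 normalized counts in Sox11 and 6792 ± 625 in GFP libraries (SD, n = 5 each). Its log2 fold change of 0.02 had a 95% interval of -0.11 to 0.16 (adjusted p = 0.872), which does not reach the estimate of any of the other 3 isomerases. The difference between isomerases was not tested.

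The secreted ER stress factors Manf, a neurotrophic factor that binds BiP, and Creld2 fell as well. Manf averaged 1742 ± 68.6 normalized counts in Sox11 and 2171 ± 211 in GFP libraries (SD, n = 5 each), with no overlap, a log2 fold change of -0.31 (limma adjusted p = 0.00567). Creld2 averaged 546 ± 74.8 normalized counts in Sox11 and 699 ± 55.6 in GFP libraries (SD, n = 5 each), with overlap, a log2 fold change of -0.36 (adjusted p = 0.0225) that lost its call without Sox11 3, Sox11 7 or GFP 5.

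Added over the 16 chaperone and folding genes, the Sox11 libraries had 95770, 99633, 95621, 99590 and 97551 normalized counts (Sox11 1, 2, 3, 6 and 7) and the GFP libraries 115632, 129276, 125317, 119166 and 113614 (GFP 1, 3, 4, 5 and 6). The Sox11 mean of 97633 ± 1959 was 81.0% of the GFP mean of 120601 ± 6578 (SD, n = 5 each), and the groups did not overlap. The spread was wider among GFP libraries, and GFP 3, the library with the high choroid plexus markers, had the highest sum. GFP 3 was the highest of its group for 10 of the 16 chaperone genes and for 16 of all 36 genes. Without GFP 3, 18 of the 36 genes fell and 1 rose. The lowest GFP sum, in GFP 6, still lay above the highest Sox11 sum.

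**Figure D3:**
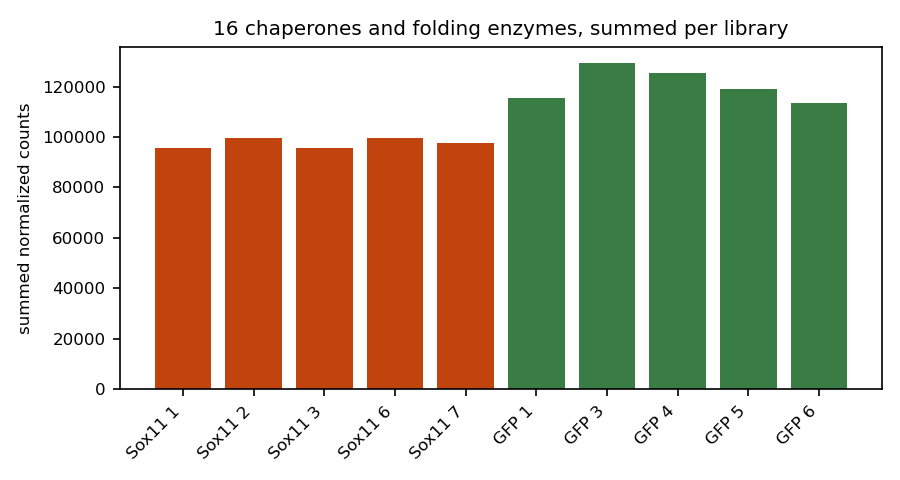
Summed normalized counts of the 16 chaperone and folding genes in each library (bars), Sox11 libraries left of GFP libraries. The Sox11 libraries lie between 95621 and 99633 and the GFP libraries between 113614 and 129276.

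The promoters of these genes are shown because ER stress elements are the known route from Atf6 and Xbp1 to chaperone genes. RefSeq windows on GRCm38.p6, from 250 bases before to 50 bases after the start that RefSeq gives, were found for 31 of the 36 genes, and none was found for Atf6, Hyou1, Manf, Derl1 or Sec61a1. The windows of the 3 chaperone genes with the lowest p are printed on the gene's strand, with the fixed letters of each match to an ER stress element in capitals (on the opposite strand for Calr and for the second match of Hsp90b1).
Hspa5 (chr2:34771840-34772139, plus strand): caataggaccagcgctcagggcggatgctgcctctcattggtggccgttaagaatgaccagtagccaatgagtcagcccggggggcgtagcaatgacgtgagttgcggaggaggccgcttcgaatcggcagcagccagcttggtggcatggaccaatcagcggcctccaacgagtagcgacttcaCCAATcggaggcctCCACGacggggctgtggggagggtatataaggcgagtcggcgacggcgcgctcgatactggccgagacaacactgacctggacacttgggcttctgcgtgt
Hsp90b1 (chr10:86705395-86705694, minus strand): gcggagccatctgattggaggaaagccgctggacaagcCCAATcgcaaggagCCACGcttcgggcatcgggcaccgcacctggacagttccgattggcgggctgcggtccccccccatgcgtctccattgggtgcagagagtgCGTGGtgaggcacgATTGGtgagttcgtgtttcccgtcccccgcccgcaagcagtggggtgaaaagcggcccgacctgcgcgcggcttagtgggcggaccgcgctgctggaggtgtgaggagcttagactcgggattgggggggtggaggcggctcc
Calr (chr8:84846882-84847181, minus strand): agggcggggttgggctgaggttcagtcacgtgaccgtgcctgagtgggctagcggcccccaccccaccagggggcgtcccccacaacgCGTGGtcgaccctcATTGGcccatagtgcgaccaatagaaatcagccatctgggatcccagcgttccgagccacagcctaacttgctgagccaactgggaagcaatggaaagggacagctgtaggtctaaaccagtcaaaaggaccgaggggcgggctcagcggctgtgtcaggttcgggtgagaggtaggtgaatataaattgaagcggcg

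The ER stress element was searched as CCAAT, 9 bases of any kind and CCACG, and its shorter relative ERSE-II as ATTGG, 1 base of any kind and CCACG, on both strands. The first was found in a window of 8 of the 31 genes (25.8%), against 0.137% of the 27025 genes with a RefSeq window of the same length, counting a gene once if any of its windows holds the letters. ERSE-II was in 2 of 31 genes (6.45%), against 0.0444% of all genes with a window. The unfolded protein response element TGACGTGG was in 0 of 31, against 0.714% of all. The Atf4-related element TGATGNAA was in 2 of 31 (Trib3 and Herpud1), against 4.51% of all. The genes were chosen by name for a response known to use ER stress elements, so their higher shares are no independent test. A match to these letters is not evidence of binding, and no window of 300 bases covers distal sites. Only exact matches were counted, so a window without one may still hold a variant of an element. The matched sites are given in the motif's own direction, with their positions in bases from the RefSeq start (position 0), which is not always the first base of the GENCODE coordinates printed above, and with the fixed letters in capitals.
Hspa5 (-65 to -47, gene strand): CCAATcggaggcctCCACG
Hsp90b1 (-212 to -194, gene strand): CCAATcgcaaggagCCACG
Hsp90b1 (-107 to -89, opposite strand): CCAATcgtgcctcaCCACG
Calr (-162 to -144, opposite strand): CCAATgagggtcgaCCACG
Dnajc3 (-105 to -87, gene strand): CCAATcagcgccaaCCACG
Creld2 (-126 to -108, opposite strand): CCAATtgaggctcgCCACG
Canx (-145 to -127, gene strand): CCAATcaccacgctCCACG
Pdia6 (-98 to -80, gene strand): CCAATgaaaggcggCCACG
Syvn1 (-44 to -26, gene strand): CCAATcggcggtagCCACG
Dnajb11 (7 to 17, gene strand): ATTGGcCCACG
Herpud1 (-52 to -42, gene strand): ATTGGgCCACG

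Of the 10 genes with either element, 8 fell, none rose and 2, the degradation genes Syvn1 and Herpud1, did not pass the test, and the median log2 fold change was -0.30. Of the 21 genes with a window and no exact match to either element, 7 fell, 1 rose and 13 did not pass, with a median of -0.11. All 8 genes with an element that fell were chaperone and folding genes, a role group in which 14 of 16 fell. Element and role group were thus mixed in this contrast, which was not tested. Xbp1, which fell, had no exact match to either element in its window, and Hspa5 and Hsp90b1, the chaperones with the lowest p, held 1 and 2 matches. Outside the 36 genes, 16 tested genes had either element in a window. By limma none of those 16 fell at an adjusted p below 0.05, 1 (Rbm39) was lower at an unadjusted p below 0.05, and the same counts came from edgeR, DESeq2 and limma-voom. Their median log2 fold change was -0.04, and 1 of them, Zfp57, rose (log2 fold change 2.12, SE 0.15). Rbm39 and Zfp57 were named after their values were seen.

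**Figure D4:**
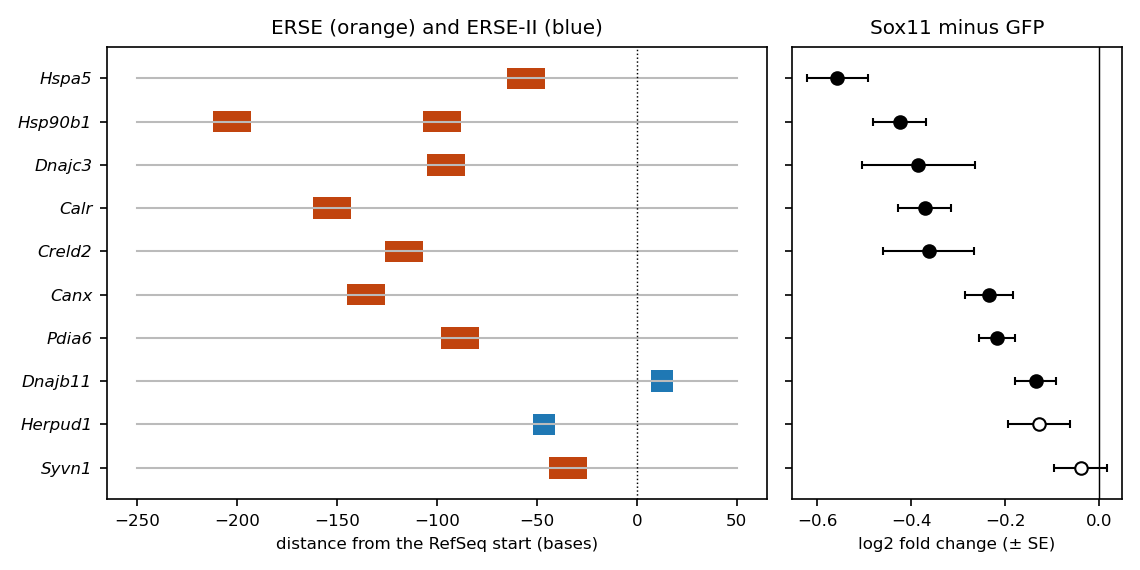
Positions of the ER stress element (orange) and ERSE-II (blue) in the promoter windows of 10 genes, in bases from the RefSeq start, beside each gene's log2 fold change with its standard error. Hsp90b1 has 2 sites, and 8 of the 10 genes fell.

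Among the 8 degradation genes 3 fell and none rose, with a median log2 fold change of -0.14. Derl1, a membrane protein of the retrotranslocation channel, had 3810.0, 3979, 3951, 4547 and 3993 normalized counts in Sox11 libraries 1, 2, 3, 6 and 7, against 4500.2, 4631, 4507, 4958 and 4621 in GFP libraries 1, 3, 4, 5 and 6. Sox11 6 stood above the other 4 Sox11 libraries and above GFP 1 and GFP 4, the lowest GFP libraries, so the groups overlapped. Derl1 (chr15:57869502-57892448, minus strand) fell with a log2 fold change of -0.20 (SE 0.05; limma adjusted p = 0.0225), a call lost without Sox11 1, 2 or 3 or GFP 5.

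Edem3, a mannosidase-like protein that marks glycoproteins for disposal, had 3377, 3405, 3330.2, 3844 and 3811 normalized counts in the Sox11 libraries, against 3883, 3913, 4259.6, 4085 and 4095 in the GFP libraries. The groups did not overlap, and Sox11 1, 2 and 3 were lower than Sox11 6 and 7. Edem3 (chr1:151755371-151822051, plus strand) had a log2 fold change of -0.19 (SE 0.05; limma adjusted p = 0.0283). Sel1l, the adaptor of the Syvn1 ubiquitin ligase, had 9909, 9778, 9911, 10300.0 and 10681 normalized counts in the Sox11 libraries, against 10666, 11051, 11774, 11349 and 11252 in the GFP libraries. Sox11 7 lay above GFP 1, the lowest GFP library, and Sox11 1, 2 and 3 again lay below Sox11 6 and 7. Sel1l (chr12:91806043-91849157, minus strand) had a log2 fold change of -0.15 (SE 0.04; limma adjusted p = 0.0321). The calls of both genes were lost without Sox11 1, 2 or 3 or GFP 4, 5 or 6.

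The ligase gene itself, Syvn1, averaged 2391 ± 98.6 normalized counts in Sox11 and 2462 ± 185 in GFP libraries (n = 5 each, SD), a log2 fold change of -0.04 (95% interval -0.16 to 0.08). Herpud1, which joins the ligase complex and is a strong ER stress target, averaged 2518 ± 181 normalized counts in Sox11 and 2753 ± 214 in GFP libraries (n = 5 each, SD), a log2 fold change of -0.13 (limma adjusted p = 0.202). Derl2 had a log2 fold change of -0.16 (adjusted p = 0.133) and Edem2 of -0.04 (adjusted p = 0.701). Edem1, a known Xbp1 target, was the only degradation gene above 0, at 1164 ± 53.9 normalized counts in Sox11 and 1061 ± 147 in GFP libraries (SD, n = 5 each) and a log2 fold change of 0.14 (95% interval -0.05 to 0.33; adjusted p = 0.293). GFP 3 and GFP 4 were as high as the Sox11 libraries for Edem1, and the other 3 GFP libraries were lower. None of these 5 genes passed the test.

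The translocon genes were near the middle of all genes, with a median log2 fold change of -0.01. Sec61a1, the channel subunit, had 4299, 4587, 4534, 4549 and 4479 normalized counts in Sox11 libraries 1, 2, 3, 6 and 7, against 4065, 4277, 4172, 4087 and 4085 in GFP libraries 1, 3, 4, 5 and 6. Sox11 1 was the lowest Sox11 library and lay just above GFP 3, the highest GFP library. Sec61a1 (chr6:88503579-88518905, minus strand) rose with a log2 fold change of 0.12 (SE 0.04; limma adjusted p = 0.0393), a call lost without Sox11 2, 3, 6 or 7 or GFP 1, 4, 5 or 6. Of its exonic bases 8.16% lie opposite another gene.

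Sec62 and Sec63, which help secretory proteins into the channel after translation, did not pass. Sec62 had 7647, 7829.8, 7362, 7926 and 8345 normalized counts in the Sox11 libraries, against 7979, 9169, 9433, 8358 and 7795 in the GFP libraries, a log2 fold change of -0.13 (95% interval -0.26 to 0.01; limma adjusted p = 0.185). Of its exonic bases 11.7% lie opposite another gene, and 88.9% of its 31-base words are its own. Sec63 had 5573, 5554, 5452, 5998 and 6297 normalized counts in the Sox11 libraries, against 5641, 6486, 6399, 5677 and 5468 in the GFP libraries, a log2 fold change of -0.04 (95% interval -0.17 to 0.10; adjusted p = 0.753). Both pairs of groups overlapped. Sec61b, a small channel subunit with 76.5% of its words to itself, averaged 868 ± 81.8 normalized counts in Sox11 and 853 ± 22.96 in GFP libraries (n = 5 each, SD), a log2 fold change of 0.02 (adjusted p = 0.889).

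Per kilobase of exonic length, Calr, Canx, Hsp90b1, Pdia3 and Hspa5 had the highest levels of the 36 genes in the GFP libraries. Calr had 4527 normalized counts per kilobase in Sox11 and 5851 in GFP libraries, Canx 3664 and 4316, and Hspa5 2453 and 3613. Among the sensors and transcription factors Atf4 was highest per kilobase (2181 in Sox11 and 1972 in GFP libraries), and Ern1 (87.97 and 91.4) and Trib3 (10.2 and 7.76) were the lowest of all 36.

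Further genes of the same processes were grouped in 7 lists by function, whose median log2 fold changes lay between -0.13 and 0.01. Over all genes tested 9.36% fell and 9.65% rose. The share that fell was 5.88% of the other transducers, 21.2% of the other folding genes and 11.5% of the other degradation genes. It was 13.8% of the translocation and N-glycosylation genes and 4.17% of the COPII and ER exit genes. Of 17 other ER stress transducers 1 fell and none rose (median log2 fold change -0.04). That gene, Map3k5 (the kinase ASK1, which acts after IRE1α), averaged 1479 ± 137 normalized counts in Sox11 and 2062 ± 293 in GFP libraries (n = 5 each, SD), a log2 fold change of -0.47 (limma adjusted p = 0.00824). Eif2ak4 (GCN2) and Ppp1r15b did not pass, at -0.10 and -0.12.

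Of 25 other targets of Atf4 and the integrated stress response, 2 fell and 1 rose (median 0.01). The asparagine synthetase gene Asns, a standard Atf4 target, had a log2 fold change of -0.19 (limma adjusted p = 0.0223), and the lipoprotein receptor gene Vldlr one of -0.22 (adjusted p = 0.0374). Phgdh, the first enzyme of serine synthesis, rose by 0.18 (adjusted p = 0.0479), but 43.7% of its 31-base words are its own. Each of these calls was lost when one of 5 or more libraries was left out. The 2 of 25 that fell (8%) stand against 9.36% of all genes tested.

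Of 33 other ER folding genes 7 fell and none rose (median -0.03). The lowest p belonged to the paired ER oxidase genes Ero1l (1388 ± 75.6 normalized counts in Sox11 and 1899 ± 49.6 in GFP libraries, log2 fold change -0.45, limma adjusted p = 0.00011) and Ero1lb (-0.36, adjusted p = 0.00144), which pass electrons from disulphide isomerases to oxygen. Fkbp14, a prolyl isomerase, had -0.35 (adjusted p = 0.00219). The groups of these 3 genes did not overlap.

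Of 26 other degradation genes tested, 3 fell and 1 rose (median -0.03). The lectin gene Erlec1 had a log2 fold change of -0.31 (limma adjusted p = 0.00383) and Fam8a1, a part of the Syvn1 complex, -0.23 (adjusted p = 0.00872). The ligase gene Rnf5 rose by 0.30 (adjusted p = 0.00206), with 63.0% of its words to itself and 24.7% of its exonic bases opposite another gene. The count that fell was 5 without GFP 1, 6 by DESeq2 and 1 within the libraries numbered 1 to 3.

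Of 29 other translocation and N-glycosylation genes tested, 4 fell and 2 rose (median -0.08). Spcs3, a signal peptidase subunit, averaged 3089 ± 249.6 normalized counts in Sox11 and 4212 ± 253 in GFP libraries (n = 5 each, SD), a log2 fold change of -0.45 (limma adjusted p = 0.000689). Srpr, the receptor of the signal recognition particle, had -0.26 (adjusted p = 0.00404) with 72.2% of its words to itself, and Ssr1, a translocon-associated protein, -0.21 (adjusted p = 0.0178). The count that rose was 0 or 1 with any library left out and 0 with no floor on low values, and the count that fell was 9 by DESeq2, 7 with sample weights and 2 within either number range. Of 24 COPII and ER exit genes 1, the cargo receptor subunit gene Mcfd2, fell (log2 fold change -0.29, adjusted p = 0.00132; list median -0.07). Its partner Lman1 (-0.19, adjusted p = 0.0521) and Sar1a (-0.12, adjusted p = 0.0931) passed when Sox11 6 was left out.

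Chaperones outside the ER are counted for comparison. Of 26 cytosolic and mitochondrial chaperones 11 fell and none rose (42.3% fell; median -0.13). Hspa4l, an Hsp110-type exchange factor, averaged 7439.9 ± 253 normalized counts in Sox11 and 10216 ± 704 in GFP libraries (n = 5 each, SD), a log2 fold change of -0.46 (limma adjusted p = 0.00024). Hsph1, another Hsp110, averaged 14112 ± 502 normalized counts in Sox11 and 18005 ± 1286 in GFP libraries (n = 5 each, SD), a log2 fold change of -0.35 (adjusted p = 0.00142). The inducible Hsp70 gene Hspa1b had -0.84 (adjusted p = 0.00308), but 31.9% of its words are its own. The count of cytosolic and mitochondrial genes that fell was 2 within the libraries numbered 1 to 3, 6 within those numbered 4 to 7, 4 at an adjusted p threshold of 0.01 and 7 with quantile normalization, and 6 without Sox11 1, 7 without GFP 5 and 7 without GFP 6.

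**Figure D5:**
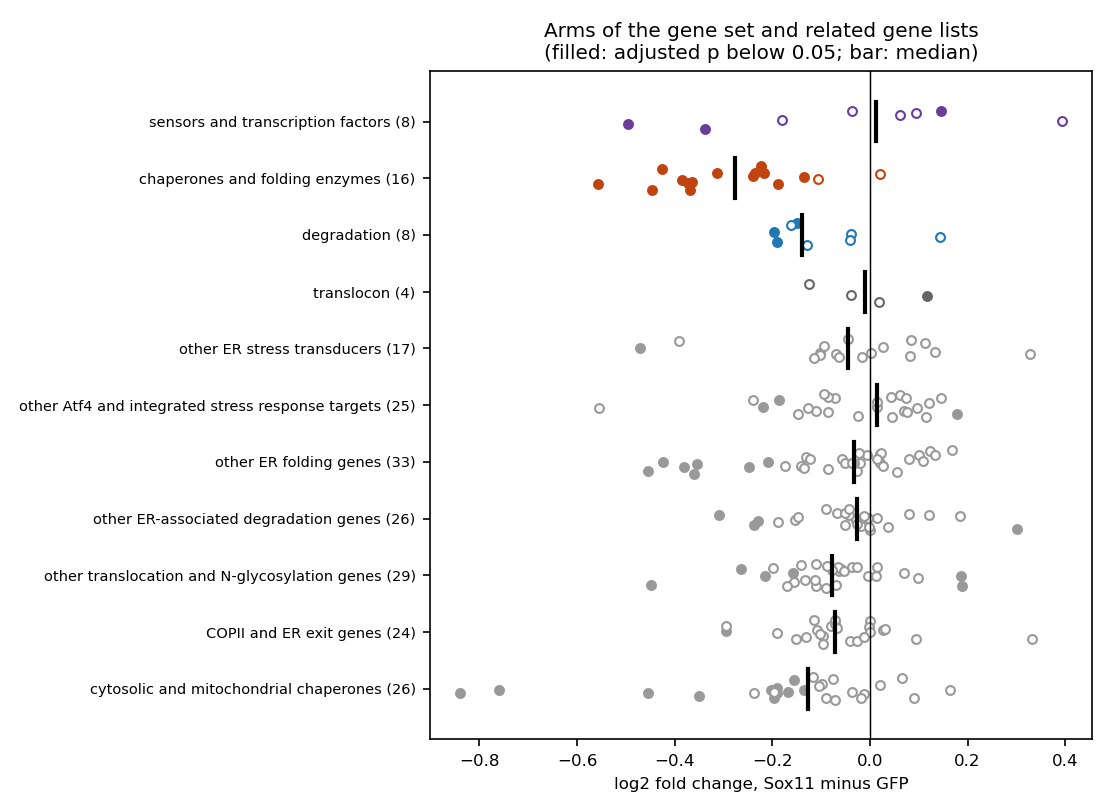
Log2 fold change (Sox11 minus GFP) of each tested gene (points) with the median (line) for the 4 role groups and the 7 lists of related genes. The ER chaperones and folding enzymes have the lowest median (-0.28), followed by the degradation genes (-0.14) and the cytosolic and mitochondrial chaperones (-0.13).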

How the data were processed

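Stranded, poly(A)-selected libraries were prepared from total RNA, per the labels' protocols. As tools, the submitters' processing notes name the aligner STAR 2.5.2a, the counter featureCounts 1.5.1 of Subread, cutadapt 1.9.1, bcl2fastq 1.8.4, R 3.3.1, DESeq2 1.12.3 and the build GRCm38. How strand and multi-mapping reads were counted, and with which annotation, is not given in the sources used here.

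Values in the table are those the authors deposited: normalized counts, a signal per gene equal to the read count divided by a factor for each library, as the values themselves show. Every value was a whole number of reads within 0.01 reads (100%), so reads were recovered. Because the header numbers differ from the numbers of the titles, each column was assigned to a group and not to a sample. GENCODE M21 matched 48058 identifiers.

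Genes with a mean of at least 10 were compared by limma 3.58.1 (trend and robust options; R 4.3.3) on log2(normalized count + 1), which understates changes of low genes, with Benjamini-Hochberg adjustment over 17007 genes. Single genes also had a two-sided exact permutation test. Replicates of a group differed beyond sampling noise in every pair. The test was checked on simulated data with 50 changed genes at each fold size. It recovered 18% of changes of 1.2-fold, 58% of 1.5-fold, 78% of 2-fold and 86% of 4-fold, and called 4 unchanged genes. The changed genes were drawn at random from the 17007, at any level above the floor. In the data 3234 genes were called, far more than were changed in the simulation, so the adjusted threshold was less strict there. These rates therefore do not give the recovery for the 36 genes. A gene that did not pass may still have a small change. The members and lists were chosen with earlier results of these data known. Per-library values are given for the 3 lowest-p genes of each role group, every gene that rose, and Ern1, Eif2ak3, Atf6 and Ddit3; of other lists, up to 3 genes of lowest p are named. Shares of 31-base words and overlaps came from GENCODE M21 transcripts, and promoter windows from RefSeq.

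Alternatives were edgeR 4.0.16, limma-voom and DESeq2 1.42.0 on the recovered counts, other pseudocounts (0.5 and 8), no floor or one of 50, quantile and TMM scaling, sample weights, limma without trend and robust, thresholds of 0.01 and 0.1, each library left out, and the header numbers (1 to 3 against 4 to 7) as a covariate. Fits within each number range, and of the libraries whose number occurs in both groups with and without the number as a block, were added after seeing the data. Python 3.11.15 was used with pandas 2.3.3, numpy 2.4.6, scipy 1.17.1 and matplotlib 3.10.9.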

Additional observations from a re-analysis of the deposited data

Results flagged for a closer look

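For the 36 genes, Sox11 and Ttr, 76 groups of 5 libraries were examined for a highest or lowest library whose gap to the next exceeded 0.71 of the group's range, the 95% critical value of Dixon's test, which chance passes in about 5% of groups. Such a gap was found in 9. Among the chaperones, Hyou1 in Sox11 7 was low (4935 normalized counts, the other 4 at 5270 to 5405), Manf in GFP 3 was high (2537, the others at 1993 to 2124), and Canx in GFP 4 was high (22460, the others at 19469 to 20080). Manf and Canx kept their call with each library left out.

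Among the degradation genes, Syvn1 in Sox11 7 was low (2218, the others at 2406 to 2463). Derl1 stood out in both groups, high in Sox11 6 (4547, the others at 3810 to 3993) and high in GFP 5 (4958, the others at 4500.2 to 4631).

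Sox11 was high in Sox11 3 (20434, the others at 9803 to 11591) and in GFP 5 (1634, the others at 1364 to 1399). Sox11 3, the library with the most Sox11, was the lowest of its group for 13 of the 36 genes and the highest for 2. GFP 6 was likewise the lowest of its group for 13 and the highest for 3, and Sox11 7 the lowest for 10 and the highest for 9. A link between these counts and the level of Sox11 was not tested. Ttr, a choroid plexus transcript, was at 345861 normalized counts in GFP 3 and at 79.96 to 1312 in the other GFP libraries.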

How the results depend on the processing

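Of the 21 genes called among the 36, 12 kept call and direction with each library left out, and 8 (Xbp1, Hspa5, Hsp90b1, Hyou1, Manf, Calr, Canx and Pdia6) under every alternative except the fits on part of the header numbers. All 36 kept theirs under pseudocounts of 0.5 and 8. The 19 genes that fell became 8 within the libraries numbered 1 to 3, 8 within those numbered 4 to 7 and 8 at a threshold of 0.01, and 12 (without Sox11 3) to 18 with 1 library left out. Chaperones that fell became 5, 7 and 7 under the same settings and 10 to 13 with 1 library left out. Degradation genes that fell became 1, 0 and 0, 1 without a filter, and 0 to 3 with 1 library left out. Sensors and transcription factors that fell became 1 within numbers 4 to 7 and 1 at 0.01. The 2 genes that rose became 0 with no filter, without trend and robust, within numbers 1 to 3 and 4 to 7 and at 0.01, and 0 or 1 with 1 library left out. Over all genes, 1642 rose and 1592 fell, against 589 and 424 within numbers 1 to 3 and 816 and 721 at 0.01, and 1280 to 1569 and 1175 to 1699 with 1 library left out. No count over all genes is given for numbers 4 to 7, no floor, limma without trend and robust, DESeq2, sample weights or quantile normalization. Counts of the 36 genes or of the lists under these settings thus have no share of all genes beside them. The header numbers 1, 3 and 6 occur in both groups, which the labels do not say pairs libraries, and deviations from the group means correlated at 0.19, 0.07 and 0.41 within these pairs; not every library correlated best with its own number. A fit of those 6 libraries with the number as a replicate block, chosen after seeing the data, called 0 of the 36 genes by limma (0 in each role group; 15 lower and 0 higher at an unadjusted p below 0.05), and 40 rose and 2 fell over all genes. Without the block, the same 6 libraries gave 3 that fell (2 chaperones, 1 sensor or transcription factor, 0 degradation genes) and 0 that rose, and 409 and 194 over all genes. The cause of these shifts was not tested, except that the within-number fits hold 5 or 6 libraries each. Ddit3 and Herpud1 passed with the number covariate and Derl2 with sample weights. Only genes that had not passed changed sign: Ern1 (0.032 with sample weights, 0.12 within numbers 4 to 7, -0.11 to 0.066 with 1 library left out, above 0 without GFP 3), Eif2ak3 (-0.0004 within 1 to 3), Trib3 (-0.10 within 1 to 3, -0.39 within 1, 3 and 6), Ppp1r15a (-0.057 within 1 to 3, -0.0011 within 1, 3 and 6), Dnajb9 (0.006 within 4 to 7), P4hb (-0.007 with the covariate, -0.089 within 1 to 3, -0.025 within 1, 3 and 6, -0.010 to 0.068 with 1 library left out, below 0 without GFP 5 or 6), Syvn1 (0.10 within 1 to 3, 0.016 within 1, 3 and 6), Sec61b (-0.075 within 4 to 7, -0.0305 to 0.057 with 1 library left out, below 0 without Sox11 3), Sec63 (0.075 within 4 to 7), Calb1 (-0.0094 with sample weights) and Ttr (-3.005 to 0.011 with 1 library left out, above 0 without GFP 3). TMM scaling moved the median of all genes by 0.0083 on the log2 scale and quantile normalization by 0.0008. Trib3 had the lowest counts of the 36 genes, and the cause of its wide spread between libraries was not tested.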
